A study of Homo sapiens with 20 samples.

Results

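The genes described here are 9 of the 18305 genes in the RNA-seq table of a myeloma surface study. They are RGS1, PTGER4 and the migration receptors CXCR4, CCR1, CCR2, CCR7, CCR10, CXCR3 and S1PR1, and all 9 were found in the table by symbol. The set was selected on measured values, since RGS1 and PTGER4 had the largest rises of all tested genes from wild-type to bortezomib-resistant AMO1 cells. That comparison is therefore given below as a description, without a test of the members. The gene with the next largest rise was CSRP3, a muscle LIM protein gene, with a log2-fold change of 4.43 against 5.03 for PTGER4 and 5.19 for RGS1. CSRP3 was at 0.18 and 0.11 FPKM in the wild-type AMO1 libraries and at 35.1 and 15.9 FPKM in the resistant libraries.

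The study compared wild-type (WT) cells with cells grown in 90 nM bortezomib (BtzR) or carfilzomib (CfzR), which are inhibitors of the proteasome. AMO1 and L363 had WT, BtzR and CfzR cells, and RPMI-8226 and ARH77 had WT and BtzR cells. Each of the 10 groups had 2 biological replicates, 20 libraries in all. Apart from the drug, the culture medium, with serum, was the same throughout. The paper does not say whether these drugs were removed before RNA was taken, so resistance and drug exposure cannot be told apart. AMO1, L363 and RPMI-8226 are myeloma lines, and ARH77 is a B-lymphoblastoid line. Each resistant group is a single derivative of its parent line, so the replicates measure the spread within that derivative, and whether it grew from a single clone is not given in the sources used here.

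Chemokine receptors and S1PR1 are G protein-coupled receptors that guide lymphocytes and plasma cells along gradients of their ligands. CXCR4 binds CXCL12 and holds plasma cells in the bone marrow, whereas S1PR1 reads sphingosine-1-phosphate and draws cells into blood and lymph. RGS1 speeds the return of the inhibitory G protein of these receptors to its inactive state and so shortens their signal. PTGER4 encodes the EP4 receptor of prostaglandin E2, which raises cyclic AMP.

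Values are FPKM, fragments scaled by transcript length and by library, so levels of different genes can be set side by side. Differences are log2-fold changes on the log2(FPKM + 1) scale, which understates changes of low genes. Of the 18305 genes, 13089 averaged 1 FPKM or more in some group and were tested with limma, and all 9 members were among them. All but CXCR4 and CCR10 averaged under 1 FPKM in some groups and passed this filter through the groups where they were higher. Calls needed an adjusted p (Benjamini-Hochberg) under 0.05 together with a log2-fold change of 1 or more in either direction. Counts at an unadjusted p under 0.05 are given without the share of all tested genes at that threshold. Nothing is read from those counts. With 2 libraries against 2, an exact permutation test cannot go below a two-sided p of 0.33, so none was made.

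The libraries held between 10455 and 11023 genes at 1 FPKM or more, and replicates correlated with a Pearson r between 0.986 in ARH77 WT and 0.998 in the libraries labelled AMO1 CfzR. Those 2 libraries stood apart from their label. Across the tested genes they correlated at 0.986 to 0.992 with the 6 L363 libraries and at 0.878 to 0.883 with the other 4 AMO1 libraries. They are called the libraries labelled AMO1 CfzR and are compared with both AMO1 WT and L363 WT, and every other comparison was also fitted without them. The 8 plasma cell markers summed to between 852 and 4175 FPKM in the myeloma libraries and to between 299 and 348 FPKM in ARH77, and the 8 B cell markers summed to at most 55.2 and to between 670 and 892 FPKM. The T and NK cell markers summed to at most 13.6 FPKM in the myeloma libraries and to between 49.2 and 181 FPKM in ARH77. In ARH77, NKG7 alone was at 73.8 and 45.7 FPKM in WT and at 177 and 124 FPKM in BtzR. The other T and NK cell markers found were at or below 2.25 FPKM there. The myeloid markers summed to between 3.13 and 8.39 FPKM throughout.

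**Figure D1:**
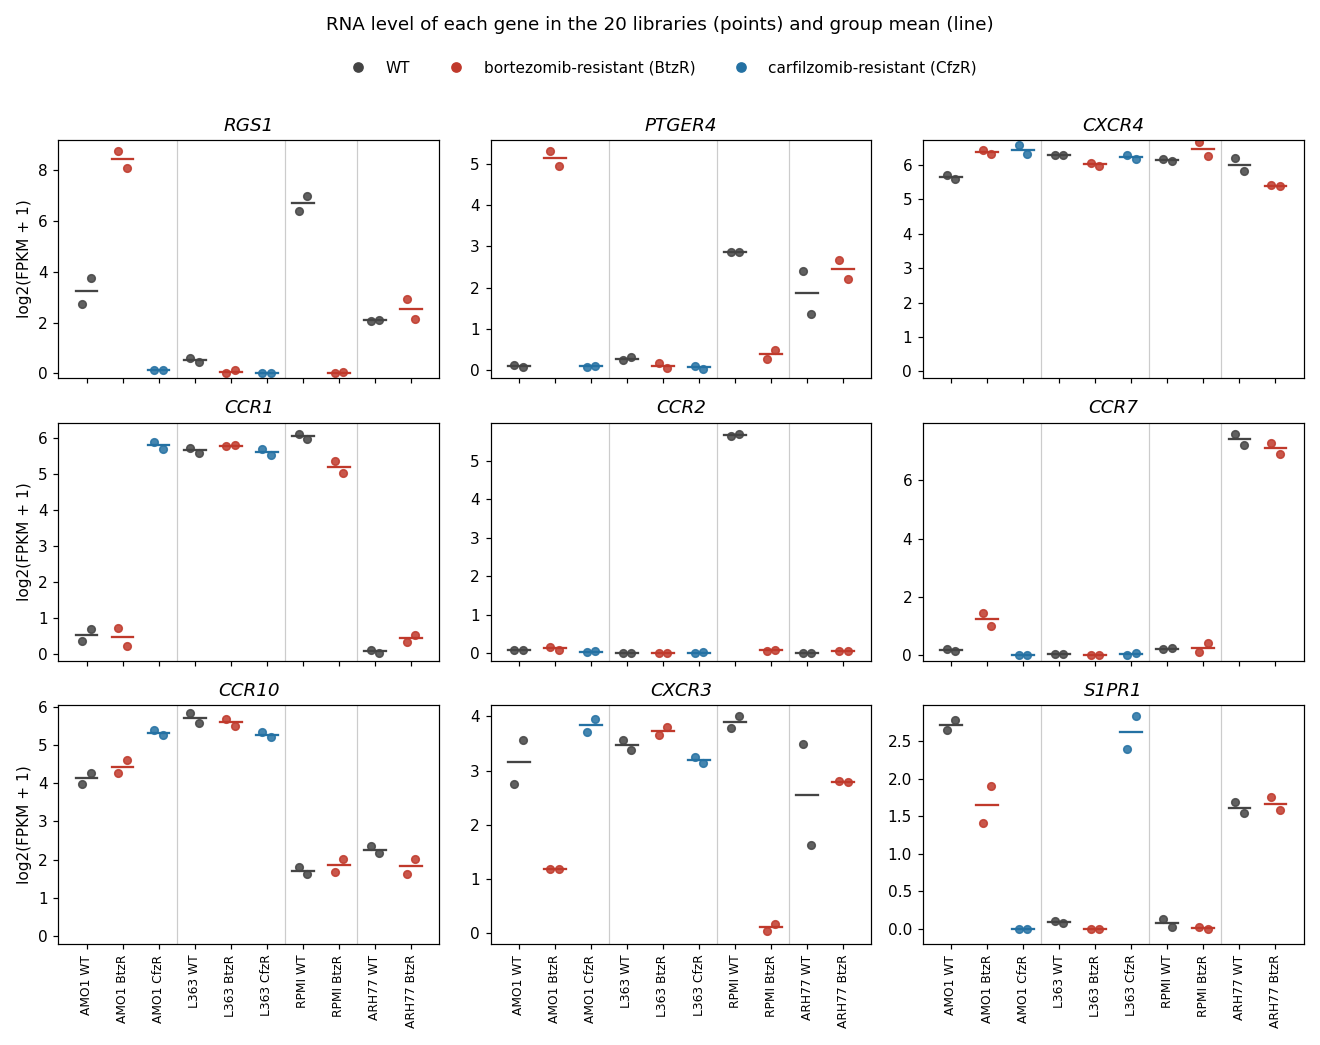
The 9 panels plot log2(FPKM + 1) of each gene in the 20 libraries (points, 2 per group, with a line at their mean) in WT, BtzR and CfzR cells of each line. RGS1 and PTGER4 were highest in AMO1 BtzR and next highest in RPMI WT, CCR2 was above 0.12 FPKM only in RPMI WT, and CCR7 was above 1.75 FPKM only in ARH77.

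RGS1 spanned the widest range of the 9 genes, from 0 to 435 FPKM. In AMO1 it was at 5.66 and 12.5 FPKM in WT and at 435 and 273 FPKM in BtzR, a log2-fold change of 5.19. In RPMI-8226 it went the other way, from 84.0 and 125 FPKM in WT to 0 and 0.04 FPKM in BtzR. The 2 RPMI BtzR libraries therefore lay far below both WT libraries, and the difference was -6.67 (SE 0.30, adjusted p = 1.0e-10 by limma). ARH77 held 3.22 and 3.32 FPKM in WT and 6.59 and 3.38 FPKM in BtzR, and that difference of 0.43 (SE 0.30, adjusted p = 0.41) was smaller than the gap between the BtzR replicates. L363 hardly expressed RGS1 in any group, with at most 0.53 FPKM in its 6 libraries, and the libraries labelled AMO1 CfzR had 0.08 FPKM each. In the order of group means, AMO1 BtzR stood above RPMI WT and RPMI WT above AMO1 WT without overlap, AMO1 WT overlapped with ARH77 BtzR, and from the libraries labelled AMO1 CfzR downwards each group overlapped with the next.

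PTGER4 had the same 2 highest groups as RGS1, at lower levels. It was at 0.09 and 0.06 FPKM in AMO1 WT and at 38.9 and 29.9 FPKM in AMO1 BtzR, a log2-fold change of 5.03. RPMI WT had 6.21 FPKM in both libraries and RPMI BtzR had 0.21 and 0.40 FPKM, a fall of 20.4-fold in the mean and a log2-fold change of -2.47 (SE 0.24, adjusted p = 6.0e-07). ARH77 WT had 4.30 and 1.55 FPKM and ARH77 BtzR 5.32 and 3.65 FPKM, so the ranges overlapped (0.56, SE 0.24, adjusted p = 0.15). Without ARH77 WT replicate 1 that difference was 1.09 and passed the test (adjusted p = 4.6e-04). PTGER4 was at or below 0.25 FPKM in all L363 libraries and in those labelled AMO1 CfzR.

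The promoters of the 4 members that were near 0 in RPMI BtzR and expressed in RPMI WT are shown so that their sequences can be compared. Each is the 250 bases before the RefSeq start site in GRCh38.p14, read 5′ to 3′ on the gene's strand, with the matches to the motifs searched in capitals. The windows lie at chr1:192575523-192575772 on the plus strand for RGS1, chr5:40679665-40679914 on the plus strand for PTGER4, chr3:46353861-46354110 on the plus strand for CCR2 and chrX:71618512-71618761 on the minus strand for CXCR3.
RGS1: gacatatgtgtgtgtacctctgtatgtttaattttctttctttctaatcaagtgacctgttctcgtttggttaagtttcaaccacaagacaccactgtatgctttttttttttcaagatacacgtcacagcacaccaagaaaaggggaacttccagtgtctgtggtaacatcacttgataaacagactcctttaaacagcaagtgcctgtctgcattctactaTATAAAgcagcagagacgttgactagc
PTGER4: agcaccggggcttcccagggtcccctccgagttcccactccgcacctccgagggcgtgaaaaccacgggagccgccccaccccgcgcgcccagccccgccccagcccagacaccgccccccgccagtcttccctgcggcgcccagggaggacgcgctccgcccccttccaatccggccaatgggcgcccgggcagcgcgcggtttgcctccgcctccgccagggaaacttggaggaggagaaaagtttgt
CCR2: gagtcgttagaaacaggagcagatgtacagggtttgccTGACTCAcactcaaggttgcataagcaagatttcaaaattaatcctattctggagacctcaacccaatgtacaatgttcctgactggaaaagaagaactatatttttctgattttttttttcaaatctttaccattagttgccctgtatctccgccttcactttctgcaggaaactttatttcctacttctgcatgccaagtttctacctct
CXCR3: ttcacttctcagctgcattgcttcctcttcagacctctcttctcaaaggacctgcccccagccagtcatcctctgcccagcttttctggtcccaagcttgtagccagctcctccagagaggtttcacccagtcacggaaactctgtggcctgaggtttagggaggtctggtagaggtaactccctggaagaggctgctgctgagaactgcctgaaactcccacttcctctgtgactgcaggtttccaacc
The motifs searched, on both strands and from 250 bases before to 50 after the start, were the cyclic AMP response element TGACGTCA, the AP-1 site TGANTCA, the kappaB site GGGACTTTC and the TATA box TATAAA. RGS1 held a TATA box 27 bases before its start, a motif present in 11.5% of 35116 such windows. CCR2 held an AP-1 match 212 bases before its start, which 7.71% of windows hold. PTGER4 and CXCR3 held none of the 4 motifs, and the cyclic AMP response element and the kappaB site were in 1.85% and 0.387% of all windows. The PTGER4 window had 72.8% G and C bases, against 54.8% for CXCR3, 39.2% for RGS1 and 38.8% for CCR2. Of the 9 members, 7 had a window in the table, without CCR7 and CCR10.

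In AMO1 BtzR the other members differed from WT in both directions. CXCR3, the receptor of CXCL9, CXCL10 and CXCL11, was at 5.74 and 10.8 FPKM in WT and at 1.28 and 1.27 FPKM in BtzR (-1.97). S1PR1 was at 5.27 and 5.88 FPKM in WT and at 1.66 and 2.73 FPKM in BtzR (-1.06). CCR7, the receptor that brings lymphocytes into lymph nodes, was at 0.15 and 0.10 FPKM in WT and at 1.75 and 1.01 FPKM in BtzR (1.06). CCR7 thus stayed below 2 FPKM in either state. CXCR4 was at 50.9 and 47.2 FPKM in WT and at 86.0 and 79.2 FPKM in BtzR (0.74). CCR10, CCR1 and CCR2 differed by 0.31, -0.05 and 0.05. With RGS1 and PTGER4, 5 of the 9 members were past both thresholds, where 9.18% of all tested genes were. This comparison chose the set, so nothing is read from that count, and without AMO1 BtzR replicate 1 it was 3, since CCR7 and S1PR1 fell short of the fold threshold. Of the 8 plasma cell markers, SDC1 and CD38 were called lower and none higher in AMO1 BtzR, with a median of -0.03. Their sum was between 3849 and 4175 FPKM in WT and between 2280 and 2539 FPKM in BtzR, and SDC1 alone was at 3266 and 2883 FPKM in WT and at 1276 and 1356 FPKM in BtzR. The B cell markers summed to 54.0 and 55.2 FPKM in WT and to 26.4 and 26.7 FPKM in BtzR, and the T and NK cell markers to between 8.77 and 13.6 and to between 1.72 and 2.26 FPKM. The part of these markers in the differences was not tested.

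**Figure D2:**
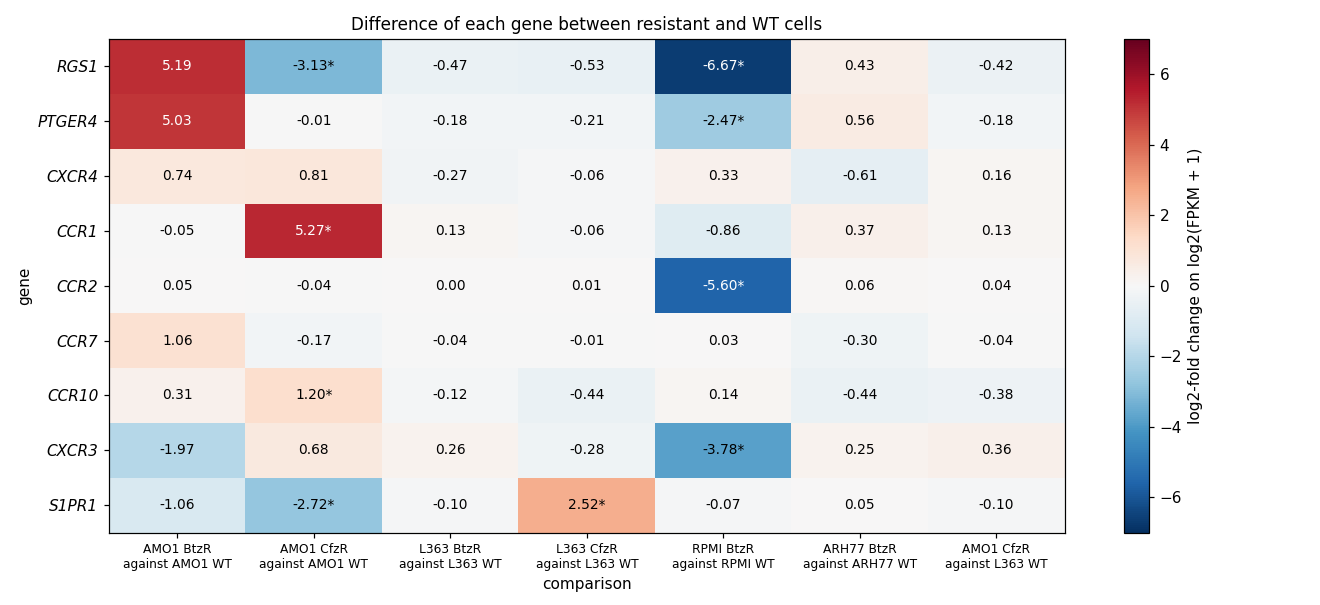
The log2-fold change of each gene (rows) on the log2(FPKM + 1) scale is shown for 7 comparisons (columns), red for higher and blue for lower in the group named first. Asterisks mark calls by limma, and the AMO1 BtzR column carries none because it chose the genes. The column of the libraries labelled AMO1 CfzR against AMO1 WT shares AMO1 WT with that choice, so its asterisks are a description. The calls in RPMI BtzR were all lower, that of CCR2 resting on RPMI WT as the group that passed the filter, and L363 BtzR and ARH77 BtzR had none.

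RPMI BtzR cells had little RNA of 4 members that were expressed in RPMI WT. CCR2, the receptor of CCL2, was at 49.2 and 51.0 FPKM in RPMI WT and at 0.04 and 0.07 FPKM in BtzR (-5.60). CCR2 passed the filter on low values through RPMI WT alone, so it had to differ here, and its values are a description without a test. CXCR3 was at 12.8 and 15.1 FPKM in WT and at 0.03 and 0.13 FPKM in BtzR (-3.78, SE 0.40, adjusted p = 1.4e-06). RGS1, PTGER4 and CXCR3, 3 of the other 8 members, were called lower and none higher, against 13.8% of all tested genes called in either direction. The median of the 9 members, CCR2 included, was -0.86 and that of all tested genes 0.05.

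The other 5 members were not called in RPMI BtzR. CCR1, a receptor of CCL3 and CCL5, was at 68.6 and 61.5 FPKM in WT and at 39.7 and 31.3 FPKM in BtzR, and it passed the p threshold but not the fold threshold (-0.86, SE 0.16, adjusted p = 4.0e-04). CXCR4 was at 71.2 and 67.8 FPKM in WT and at 101 and 75.8 FPKM in BtzR (0.33, SE 0.13, adjusted p = 0.0504). CCR10, the receptor of CCL27 and CCL28, was at 2.5 and 2.07 FPKM in WT and at 2.2 and 3.06 FPKM in BtzR, with overlapping ranges. CCR7 and S1PR1 were at or below 0.33 FPKM in all 4 libraries. The 8 B cell markers summed to 27.1 and 27.8 FPKM in RPMI WT and to 0.52 and 0.96 FPKM in RPMI BtzR, and the plasma cell markers to 1191 and 1232 and to 852 and 915 FPKM. Of 8 markers each, TNFRSF17 and CD38 among the plasma cell markers and CD79B, CR2 and BLK among the B cell markers were called lower and none higher, with medians of -0.27 and -0.39. Their part in the lower values of the 4 members was not tested. In bulk RNA, fewer cells that express a gene and less of its RNA in each cell cannot be told apart.

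In L363 BtzR none of the 9 members was called by limma and none had an unadjusted p under 0.05, where 2.06% of all tested genes were called. The median of the members was -0.10, and the differences ran from -0.47 to 0.26. CXCR3, which fell in RPMI BtzR, was at 10.8 and 9.43 FPKM in L363 WT and at 11.6 and 13.0 FPKM in L363 BtzR (0.26, 95% interval -0.59 to 1.11). For RGS1, at 0.53 and 0.37 FPKM in WT and at 0 and 0.09 FPKM in BtzR, the scale decided the call. With a pseudocount of 0.1 FPKM in place of 1 the difference was -1.98 (adjusted p = 0.0044), and the depth of these libraries is unknown.

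S1PR1 was the single member called in L363 CfzR, where 1.93% of all tested genes were called. It was at 0.08 and 0.06 FPKM in L363 WT, listed at 0 in both L363 BtzR libraries, and at 4.29 and 6.15 FPKM in L363 CfzR (2.52, SE 0.15, adjusted p = 3.3e-08). The level in L363 CfzR overlapped with that in AMO1 WT. The libraries labelled AMO1 CfzR, which resembled L363, listed S1PR1 at 0. KLF2, a transcription factor that switches on S1PR1 in lymphocytes, was at 9.68 and 9.92 FPKM in L363 WT, at 0.96 and 1.44 FPKM in L363 BtzR and at 13.5 and 20.8 FPKM in L363 CfzR. KLF2 fell in L363 BtzR (-2.30, SE 0.22, adjusted p = 4.7e-06), and its difference in L363 CfzR was 0.72 and was not called. Among the other members in L363 CfzR, CCR10 was at 55.6 and 47.0 FPKM in WT and at 39.4 and 35.6 FPKM in CfzR (-0.44, SE 0.17, adjusted p = 0.14).

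For CCR1 and CCR10 the libraries labelled AMO1 CfzR were closer to L363 WT than to AMO1 WT. CCR1 was at 0.28 and 0.61 FPKM in AMO1 WT, at 58.4 and 50.7 FPKM in these libraries and at 52.1 and 47.3 FPKM in L363 WT. CCR10 was at 14.7 and 18.4 FPKM in AMO1 WT, at 40.8 and 37.2 FPKM in these libraries and at 55.6 and 47.0 FPKM in L363 WT. Against AMO1 WT, CCR1 (5.27) and CCR10 (1.2) were higher and RGS1 (-3.13) and S1PR1 (-2.72) lower past both thresholds. These were 4 of 9 members, where 17.1% of all tested genes were called. AMO1 WT is part of the comparison that chose the set, so these values are a description and nothing is read from the count. The median of the members was -0.01 and that of all tested genes -0.03. Against L363 WT none of the 9 members was called by limma, where 1.66% of all tested genes were, and 1 had an unadjusted p under 0.05, CCR10 (-0.38, SE 0.17, adjusted p = 0.25). The medians were -0.04 for the members and -0.01 for all tested genes. A fit without these 2 libraries left every call of a member in the other comparisons as it was.

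In ARH77 BtzR none of the 9 members was called by limma, where 1.60% of all tested genes were, and 4 had an unadjusted p under 0.05. The share of all tested genes at that unadjusted threshold is not given, so nothing is read from the 4. CXCR4 passed the p threshold but not the fold threshold. It was at 72.3 and 55.5 FPKM in WT and at 41.4 and 40.8 FPKM in BtzR, so that both resistant libraries lay below both WT libraries (-0.61, SE 0.13, adjusted p = 0.0062). CCR7 was at 192 and 146 FPKM in WT and at 155 and 119 FPKM in BtzR, with overlapping ranges (-0.30, SE 0.16, adjusted p = 0.25). CXCR3 differed between the WT replicates themselves, at 10.2 and 2.07 FPKM, and was at 6.01 and 5.91 FPKM in BtzR. Its difference of 0.25 turned to -0.69 without ARH77 WT replicate 2 and to 1.18, past the test, without ARH77 WT replicate 1. Without the latter library 2 members were called, CXCR3 and PTGER4. S1PR1 was at 2.22 and 1.91 FPKM in WT and at 2.37 and 1.99 FPKM in BtzR. The median of the members was 0.06 and that of all tested genes -0.04.

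Whether the bortezomib effect differed between L363, RPMI-8226 and ARH77 was tested directly, leaving out AMO1. The F test of limma was passed by 6 of the 9 members and by 52.9% of all tested genes, so the count is near the background and is not a result about the members. They were RGS1 (adjusted p = 6.5e-09), PTGER4 (9.1e-06), CXCR3 (2.9e-05), CCR1 (9.6e-04), CXCR4 (0.0023) and CCR2, which was listed at 0 in L363 WT and ARH77 WT, so that its outcome was set by the filter. For CXCR4 the log2-fold changes were -0.27 in L363, 0.33 in RPMI-8226 and -0.61 in ARH77, so that RPMI-8226 had the opposite sign. For CCR1 they were 0.13, -0.86 and 0.37. The test was not passed by CCR10 (0.12), CCR7 (0.41) and S1PR1 (0.79), the last 2 of which were near 0 in L363 and RPMI-8226.

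Among WT cells CCR1, CCR7 and S1PR1 differed between ARH77 and both L363 and RPMI-8226. L363 and RPMI-8226 together were compared with ARH77, and AMO1 was left out because its libraries had chosen the set. RGS1, CCR1, CCR10 and CXCR3 were called higher and CCR7 and S1PR1 lower in L363 and RPMI-8226, where 24.2% of all tested genes were called. CCR2 was also past both thresholds, but it passed the filter through RPMI WT alone, so its outcome was set in advance. CCR1 was at 47.3 to 68.6 FPKM in the 4 myeloma libraries and at 0.08 and 0.02 FPKM in ARH77 (5.78, SE 0.14, adjusted p = 3.8e-14). CCR7 was at 0.03 to 0.18 FPKM in the myeloma libraries against 192 and 146 FPKM in ARH77 (-7.26, SE 0.14, adjusted p = 2.6e-15). S1PR1 was at 0.02 to 0.10 FPKM against 2.22 and 1.91 FPKM (-1.52, SE 0.13, adjusted p = 4.9e-08). AMO1 WT, outside this comparison, was unlike L363 and RPMI-8226 in CCR1 (0.28 and 0.61 FPKM) and S1PR1 (5.27 and 5.88 FPKM). Its CCR7 was low as in those lines, at 0.15 and 0.10 FPKM.

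The other calls, and the difference of CCR2, rested on a part of the myeloma libraries. RGS1 (1.52, adjusted p = 1.1e-04) and CCR2 (2.84, again through the group that passed the filter) were high in RPMI WT, and in L363 WT RGS1 lay below ARH77 and CCR2 was listed at 0. CCR10 (1.44, adjusted p = 3.4e-07) was at 55.6 and 47.0 FPKM in L363 WT, at 2.5 and 2.07 FPKM in RPMI WT and at 4.14 and 3.49 FPKM in ARH77 WT. CXCR3 (1.13, adjusted p = 0.0086) overlapped with ARH77 and lost its call without ARH77 WT replicate 2 (0.19, adjusted p = 0.43). PTGER4 and CXCR4 differed by -0.31 and 0.21 and were not called. CXCR4 was the most even of the members, between 40.8 and 101 FPKM in all 20 libraries.

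Neighbours on the chromosome were compared by the RefSeq gene order of GRCh38.p14, 3 protein-coding genes on either side of each member, a comparison chosen after the data were seen. RGS1 lies between RGS21 and RGS13, followed by RGS2 and UCHL5, and 3 of its 6 neighbours were tested. RGS2, which restrains signalling from the G protein Gq, was at 1.19 and 1.68 FPKM in AMO1 WT and at 17.6 and 12.6 FPKM in AMO1 BtzR (2.71). RGS1 was chosen on these AMO1 libraries, so this value of its neighbour is a description. In RPMI-8226 it fell from 12.4 and 12.8 FPKM to 0 and 0.04 FPKM (-3.74, SE 0.15, adjusted p = 2.3e-11). RGS13 fell in RPMI-8226 from 7.42 and 8.84 FPKM to a listed value of 0 in both BtzR libraries (-3.19). RGS13 passed the filter on low values through RPMI WT alone, so it had to differ in RPMI-8226. Its values are a description without a test. In AMO1, RGS13 was at 0.07 and 0.04 FPKM in WT and at 1.12 and 0.86 FPKM in BtzR, and was not called (0.91). UCHL5, which encodes a deubiquitinase of the proteasome, was not called in AMO1 BtzR (-0.06) or in RPMI BtzR (-0.10). RGS1 and RGS2 were thus both called lower in RPMI BtzR, and RGS13 was listed at 0 there. BRINP3, RGS18 and RGS21 were at or below 0.03 FPKM in every library.

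CCR2 lies in a row of receptor genes on the same chromosome, with CCR3, CCR1 and XCR1 before it and CCRL2 and LTF among the genes after it. In RPMI BtzR, CCR3 fell from 4.71 and 5.62 FPKM to 0.40 and 0.89 FPKM (-1.92, SE 0.22, adjusted p = 3.2e-06). LTF, the lactoferrin gene, fell from 26.8 and 43.1 FPKM to 0 and 0.28 FPKM (-4.95). CCR1, next to CCR3, stayed above 30 FPKM. Of the 6 neighbours of PTGER4 4 were tested, and none was called in AMO1 BtzR. The next gene, TTC33, was at 4.89 and 4.81 FPKM in AMO1 WT and at 7.88 and 6.63 FPKM in AMO1 BtzR (0.49). After it, PRKAA1 (0.47) and RPL37 (0.93) were higher too. TTC33, PRKAA1 and RPL37 passed the p threshold but not the fold threshold, and FYB1 differed by -0.02.

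**Figure D3:**
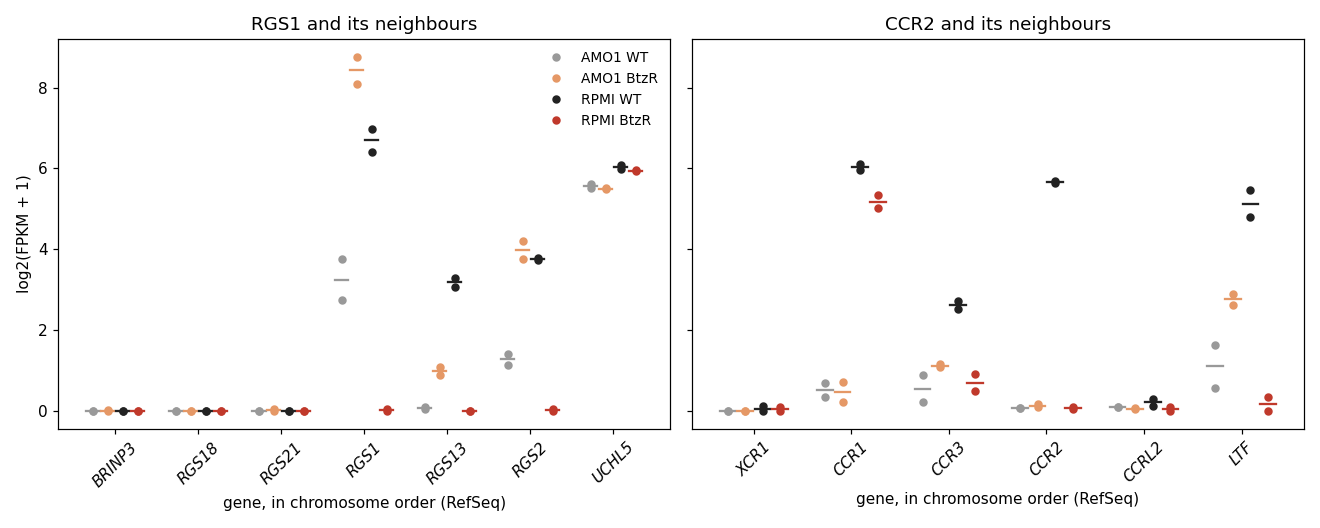
The left panel plots log2(FPKM + 1) of RGS1 and its neighbours and the right panel that of CCR2 and its neighbours, in chromosome order, with 2 libraries (points) and their mean (line) for WT and BtzR of AMO1 and RPMI. RGS1, RGS13 and RGS2 were at or below 0.04 FPKM in RPMI BtzR, while UCHL5 was between 44.0 and 67.5 FPKM in all 8 libraries shown.

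The other genes of these pathways were followed in 7 lists. Of 20 other RGS genes 12 were tested, and in AMO1 BtzR RGS2 and RGS9 were called higher and none lower, with a median of 0.28. RGS9 was at 0.07 and 0.13 FPKM in AMO1 WT and at 2.5 and 1.38 FPKM in BtzR (1.39). In RPMI BtzR RGS2 and RGS12 were called lower and RGS16 higher, with a median of -0.33. RGS13 was also past both thresholds there, an outcome set by the filter. RGS16, another brake on Gi-coupled receptors, went from 12.7 and 10.7 FPKM in RPMI WT to 54.3 and 92.2 FPKM in BtzR (2.51, SE 0.20, adjusted p = 5.8e-08), against the direction of RGS1. In L363 BtzR, L363 CfzR and ARH77 BtzR no gene of the list was called by limma, and 1, 2 and 4 had an unadjusted p under 0.05. Those counts, too, have no share of all tested genes beside them. RGS2 came nearest, at -0.94 in both L363 CfzR and ARH77 BtzR. RGS12 here and CXCL9, GRK5, GRK6 and DUSP1 below are named after their values were seen.

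Ligands of the member receptors numbered 19, of which 17 were in the table and 10 were tested. CXCL12, the ligand of CXCR4, rose in RPMI BtzR from 8.40 and 10.6 FPKM to 68.8 and 37.9 FPKM (2.32, SE 0.18, adjusted p = 5.1e-08), and was at or below 0.11 FPKM in every library of the other lines. CCL5 (-1.25) fell in RPMI BtzR, and the median of the list was -0.07. CXCL9 was lower there too (-1.46), but it passed the filter through RPMI WT alone, so its value is a description without a test. CCL3, a ligand of CCR1, was most abundant in AMO1, at 415 and 512 FPKM in WT and at 255 and 182 FPKM in BtzR (-1.09, SE 0.33, adjusted p = 0.013). It also fell in L363 BtzR (-1.93), from 4.19 and 4.54 FPKM to 0.52 and 0.30 FPKM, and rose in ARH77 BtzR (1.49), from 0.64 and 0.34 FPKM to 5.68 and 1.59 FPKM. CCL2, the ligand of CCR2, rose in ARH77 BtzR from 1.87 and 0.80 FPKM to 7.54 and 4.67 FPKM (1.61), where CCR2 itself was at or below 0.05 FPKM.

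Of 17 other chemokine receptors 9 were tested. ACKR3, a second receptor of CXCL12 that removes it, was the single call in AMO1 BtzR, from 0.05 and 0.26 FPKM to 3.10 and 2.67 FPKM (1.75, SE 0.13, adjusted p = 7.6e-08), and the median of the list was 0.01. In RPMI BtzR CCR3 fell and CCR9, a gut-homing receptor, rose from 0 and 0.02 FPKM to 0.83 and 2.05 FPKM (1.23), with a median of -0.25. CCR9 also rose in ARH77 BtzR (1.12).

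Of 12 genes of sphingosine-1-phosphate receptors and metabolism with KLF2 and CD69, 9 were tested. S1PR4, a receptor of the same ligand, was at 11 and 16.0 FPKM in AMO1 WT and at 0.03 and 0.10 FPKM in AMO1 BtzR (-3.75, SE 0.16, adjusted p = 1.9e-10). KLF2 fell in AMO1 BtzR from 54.5 and 65.3 FPKM to 21.4 and 30.7 FPKM (-1.19) and in RPMI BtzR from 8.64 and 10.2 FPKM to 2.53 and 3.54 FPKM (-1.37). KLF2 was therefore called lower in BtzR cells of all 3 myeloma lines, and in ARH77, where it was at or below 1.18 FPKM, it was not called (-0.33). SGPP2, which breaks down sphingosine-1-phosphate, rose in RPMI BtzR (2.00). The medians of the list were -0.07 in AMO1 BtzR and 0.71 in RPMI BtzR.

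All 14 signal transducers were tested. In RPMI BtzR DOCK2, which activates Rac downstream of chemokine receptors, fell from 14.8 and 17.1 FPKM to 0.02 and 0.01 FPKM (-4.06, SE 0.11, adjusted p = 4.2e-13). PIK3CG, the catalytic subunit of PI3-kinase gamma, fell from 12.7 and 14.2 FPKM to 0.09 and 0.06 FPKM (-3.74, SE 0.11, adjusted p = 1.0e-12). GNAI1 (1.89), an inhibitory G protein subunit, and GRK5 (1.01) rose there. In AMO1 BtzR ARRB1, the beta-arrestin 1 gene, rose from 0.33 and 0.46 FPKM to 4.07 and 4.22 FPKM (1.88) and GRK6 fell (-1.16). ARRB1 passed the filter through AMO1 BtzR alone, so its values are a description without a test. The medians were -0.41 in AMO1 BtzR and -0.0050 in RPMI BtzR. GRK5 fell in ARH77 BtzR (-1.11), the single call of this list there.

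The prostaglandin E2 list had 11 genes, of which 7 were tested, and none was called by limma in AMO1 BtzR, where PTGER4 itself was at its highest and 5 of the 7 had an unadjusted p under 0.05. In RPMI BtzR PTGS1, the cyclooxygenase 1 gene, fell from 14.8 and 16.2 FPKM to 1.54 and 2.06 FPKM (-2.56, SE 0.08, adjusted p = 2.4e-12). The medians were 0.04 in both. Of 13 genes known to respond to cyclic AMP and CREB 11 were tested, and none was called by limma in AMO1 BtzR, where 5 had an unadjusted p under 0.05 and the median was 0.01. Neither count of 5 has a share of all tested genes beside it, and nothing is read from them. In RPMI BtzR EGR1 and DUSP1 (1.09) were called higher, with a median of 0.37. EGR1 was at 0.76 and 0.53 FPKM in RPMI WT and at 0.73 and 10.5 FPKM in BtzR, so that its difference (1.44, SE 0.56, adjusted p = 0.041) lay in BtzR replicate 2. The median of all tested genes was -0.0017 in AMO1 BtzR and 0.05 in RPMI BtzR. In the other lines the medians of the 7 lists ran from -0.11 to 0.04 in L363 BtzR, from -0.05 to 0.08 in L363 CfzR and from -0.12 to 0.27 in ARH77 BtzR, against 0, -0.0040 and -0.04 for all tested genes.

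**Figure D4:**
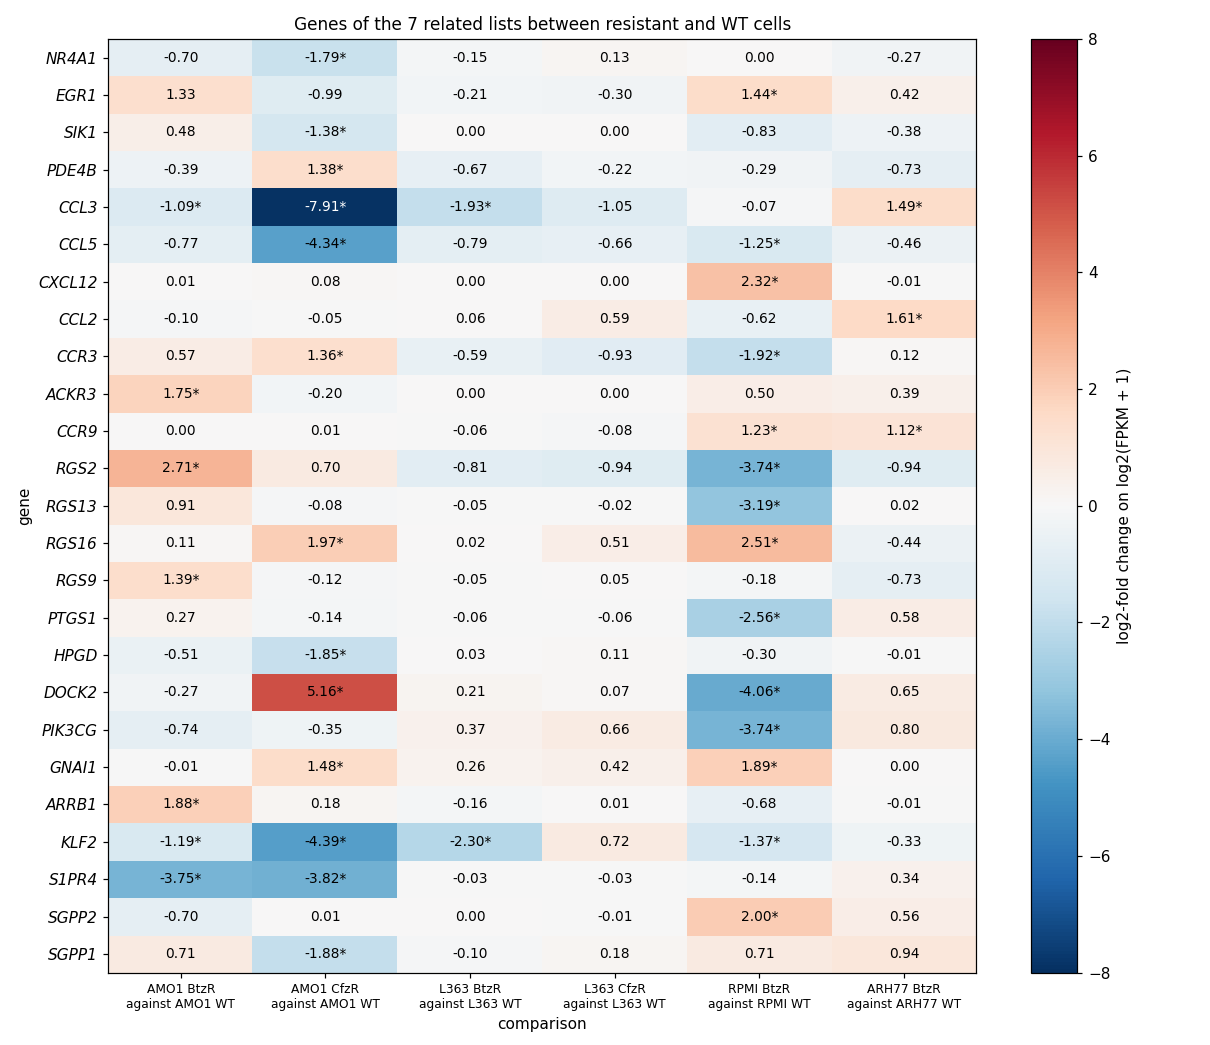
The log2-fold change on the log2(FPKM + 1) scale is shown for genes of the 7 lists (rows) in the 6 comparisons of resistant with WT cells (columns), red for higher and blue for lower in resistant cells, with asterisks at calls by limma. The column AMO1 CfzR against AMO1 WT uses the libraries labelled AMO1 CfzR, which resembled L363. In that column a difference between lines and one of resistance cannot be told apart. RGS2 was called higher in AMO1 BtzR and lower in RPMI BtzR, and KLF2 was called lower in BtzR cells of AMO1, L363 and RPMI. The asterisks of RGS13 in RPMI BtzR and of ARRB1 in AMO1 BtzR rest on the single group that passed the filter.

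Genes with a pattern like that of each member over the 10 group means were ranked by Pearson's r of log2(FPKM + 1) among the tested genes, as a description. The points share libraries and lines, and a gene high in a single group gives a high r with any other such gene. RGS1 was closest to PTP4A3 (0.970), CHI3L1 (0.961) and VSTM2L (0.952). PTP4A3, which encodes a phosphatase, was at 21.9 and 24.7 FPKM in AMO1 WT, 60.9 and 67.3 FPKM in AMO1 BtzR, 57.9 and 49.6 FPKM in RPMI WT and 11.9 and 15.6 FPKM in RPMI BtzR. PTGER4 was closest to DMD (0.957), KIAA0895 (0.943) and LFNG (0.938). The dystrophin gene DMD was at 0.03 and 0 FPKM in AMO1 WT, 7.64 and 3.68 FPKM in AMO1 BtzR and 1.22 and 1.40 FPKM in RPMI WT, and at most 0.04 FPKM in RPMI BtzR.

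CXCR3 was closest to ICAM3 (0.948), an adhesion molecule gene that was at 79.6 and 64.1 FPKM in RPMI WT and at 4.10 and 3.58 FPKM in RPMI BtzR. In AMO1, ICAM3 was at 18.9 and 21.3 FPKM in WT and at 5.73 and 6.18 FPKM in BtzR. The others nearest to CXCR3 were the gene with ID 92979, named MARCHF9 in RefSeq (0.936), and NT5C3B (0.935). CCR2 was closest to FOXL1, MATN2 and ADGRB1 (0.9998 each), all above 1 FPKM in RPMI WT alone. FOXL1, at 1.08 and 1.51 FPKM, and MATN2, at 1.8 and 1.65 FPKM, were near the filter there. CCR7 was closest to PPP4R4 (0.9998) and MCOLN2 (0.998), both high in ARH77. CCR1 was closest to CADPS2 (0.994), AGAP1 (0.991) and FAM69B (0.991), CCR10 to CLPTM1 (0.988), ANKDD1A (0.987) and TIAM1 (0.986), CXCR4 to CCNB1 (0.902), TRAPPC2B (0.897) and SLC2A8 (0.895), and S1PR1 to PRKCD (0.874), ADAP1 (0.863) and FAM57A (0.835).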

How the data were processed

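RNA was taken from 20 cell line libraries in 10 groups of 2 biological replicates. The authors deposited FPKM values to 2 decimals for 18305 genes, and BGI prepared and sequenced the libraries on the BGISEQ-500. The submitters' processing notes name HISAT2 2.0.4, Bowtie2 2.2.5 and RSEM 1.2.12, and the genome build is not given in the sources used here. No read counts accompany the values, so depth is unknown and precision rests on the replicates.

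Values were transformed as log2(FPKM + 1) and fitted in limma 3.58.1 (R 4.3.3) with a mean per group over all 20 libraries (10 residual degrees of freedom) and a mean-variance trend, for the 13089 genes averaging 1 FPKM or more in some group. P-values were adjusted by Benjamini-Hochberg over all of them, and calls also needed a log2-fold change of 1 or more in either direction. Groups were taken from the line, drug and replicate in the labels. Tested on simulated data for RPMI BtzR against WT (12982 genes, 200 changed by an absolute log2-fold change of 2), the fit called 194 of the 200 and 1 unchanged gene. The changed genes were drawn only from genes averaging 5 FPKM or more over the 20 libraries, so recovery of lower genes was not measured.

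The members and lists were chosen with earlier results of these data known. Genes named are the members, the gene just outside the rule, the 3 genes most like each member, and list genes called in a resistant group (at most 4 a list, by size), apart from genes not reported here. Replicate numbers did not pair the samples. Alternatives were other pseudocounts, filters, scalings and fits, and leaving out each library. Figures were drawn with matplotlib 3.10.9 in Python 3.11.15.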

Additional observations from a re-analysis of the deposited data

Results flagged for a closer look

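The effect of bortezomib resistance was compared between L363, RPMI-8226 and ARH77 by limma's F test of the difference itself with Benjamini-Hochberg adjustment. It was passed by 6 of the 9 genes and by 52.9% of all tested genes, so the count is near the background. The adjusted p was 6.5e-09 for RGS1, 9.1e-06 for PTGER4, 0.0023 for CXCR4, 9.6e-04 for CCR1, 1.7e-15 for CCR2 and 2.9e-05 for CXCR3. Log2-fold changes in L363, RPMI-8226 and ARH77 were -0.47, -6.67 and 0.43 for RGS1, -0.18, -2.47 and 0.56 for PTGER4, 0, -5.60 and 0.06 for CCR2 and 0.26, -3.78 and 0.25 for CXCR3. CCR2 was listed at 0 in L363 WT and ARH77 WT and passed the filter through RPMI WT alone, so its effect could differ only there and its p supports nothing. RGS1 and PTGER4 were at or below 0.53 FPKM in L363 WT, where a fall of that size could not be measured.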

How the results depend on the processing

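With TPM scaling, quantile normalization, no filter or a filter of 5 FPKM, no mean-variance trend, a fit of only the groups compared, or a fit without the libraries labelled AMO1 CfzR (added after the data were seen), each count of called members stayed within 1.5 times its reported value, and TPM scaling and quantile normalization moved the median of all tested genes by less than 0.1. The replicate block kept the 5 calls in AMO1 BtzR, and it changed no other call of a member. Same-numbered libraries deviated with correlations between -0.0055 and 0.245, so the numbers were not taken as pairs. The pseudocount of 0.1 FPKM brought 1 call in L363 BtzR (RGS1), 2 in L363 CfzR (with RGS1, -2.44), 1 in ARH77 BtzR (CCR1, 1.60), 5 in place of 4 in the libraries labelled AMO1 CfzR against AMO1 WT (with CCR7, -1.16) and 1 in the libraries labelled AMO1 CfzR against L363 WT (RGS1, -1.60). Quantile normalization turned PTGER4 in AMO1 CfzR against AMO1 WT from -0.0066 to 0.044.

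Leaving out each library in turn gave 3 to 5 called members in AMO1 BtzR, 0 to 2 in ARH77 BtzR, 4 to 5 in RPMI BtzR with CCR2 counted (CCR1, -1.03, without RPMI BtzR replicate 1) and 6 to 7 in the WT lines. CCR2 is counted in the WT lines too. Direction turned for differences near 0 and for CXCR3 in ARH77 BtzR (-0.69 to 1.18) and PTGER4 in the WT lines (-0.84 to 0.21). The others were CCR1 in AMO1 BtzR (-0.31 to 0.20), PTGER4 in AMO1 CfzR against AMO1 WT (-0.027 to 0.013), CCR10 in L363 BtzR (-0.23 to 0.0034), CCR1 (-0.15 to 0.032) and CCR7 (-0.043 to 0.028) in L363 CfzR, CCR7 (-0.12 to 0.18) and CCR10 (-0.035 to 0.31) in RPMI BtzR, and S1PR1 in ARH77 BtzR (-0.034 to 0.14). The call of CXCR3 between the WT lines was also lost in a fit of only those groups (adjusted p = 0.096), and CCR10 passed the interaction test (0.049) without ARH77 BtzR replicate 2. How reads shared by similar genes, such as members of the chemokine receptor and RGS families, were divided was not tested, values are RNA levels, and the cause of each change above was not tested.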
